A study of Mus musculus with 6 samples.

Results

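The genes described are 10 genes of the WNT pathway in mouse liver: the secreted ligands Wnt2, Wnt9b and Rspo3, and 7 genes known as targets or feedback regulators of the pathway in hepatocytes, Tbx3, Axin2, Lgr5, Rnf43, Znrf3, Rhbg and Slc13a3. They were picked by name out of 24501 genes, with their difference between the groups already known. Differences between the groups are therefore given for them as a description, without a p-value. RNA was sequenced from the livers of 6 male C57BL/6J mice, 3 in each of 2 groups. All carried Gata4 fl/fl, floxed alleles of the gene for a GATA transcription factor. The controls received an empty adeno-associated virus (AAV8). The group labelled Gata4LKO received AAV8-Tbg-Cre, whose Tbg promoter drives Cre in hepatocytes, so Gata4 of other liver cells was not the target. Virus was given at 8 weeks of age. The mice were 11 weeks old at collection after 3 weeks of a Western diet, which is rich in fat, and a fast of 6 hours, per the labels, although another label places collection 7 days after the injection and the design text speaks of refed animals.

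In the liver, WNT proteins and R-spondins come mainly from endothelial cells around the central vein. They act on the hepatocytes closest to that vein, called pericentral, and there keep beta-catenin stable, which then works with TCF/LEF factors on target genes. R-spondins bind LGR receptors and thereby hold back the ubiquitin ligases RNF43 and ZNRF3, which otherwise remove the Frizzled receptors. The expression of many metabolic genes along the axis from portal to central vein depends on this signal. The libraries were made from whole liver, in which fewer cells of a type and less RNA per cell cannot be told apart.

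The libraries held 33274223 to 37390345 reads, and values are read counts that the authors normalised for library size. Gata4 itself had normalised read counts of 704, 637 and 546 in control livers against 867, 848 and 895 in Gata4LKO-labelled livers. The counts of the targeted gene thus did not show a loss (log2 fold change 0.47, SE 0.10, limma adjusted p = 0.0641, and 0.00726 to 0.946 over the alternatives), so that group membership is known here only through the labels. Counts of the whole gene do not separate deleted from retained exons. Of 14385 genes tested, 162 were higher and 134 lower in the libraries labelled Gata4LKO (limma, Benjamini-Hochberg adjusted p under 0.05), which is 2.06% of the genes. With libraries scaled to equal sums 71.6% of the calls were higher, against 54.7% with the deposited scaling. The number of calls leaned on single libraries and lay between 27 without Gata4LKO replicate 3 and 794 without Control replicate 2.

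In control liver the genes spanned a wide range of levels, compared here per kilobase of merged exons. Tbx3, a T-box transcriptional repressor, stood highest with 292 ± 19.0 normalised reads per kilobase (SD, n = 3). Rnf43 followed with 223 ± 17.9 and Slc13a3 with 194 ± 37.2 per kilobase, and the ranges of this pair overlapped. Znrf3 and Axin2 had 76.5 ± 6.08 and 70.8 ± 4.71 per kilobase, and their ranges overlapped too. Among the ligands Rspo3 was highest with 46.0 ± 11.0 per kilobase, above all controls of Wnt2 with 29.4 ± 3.76. Rhbg with 28.3 ± 11.9 and Lgr5 with 24.2 ± 5.40 overlapped in range with each other, and Rhbg overlapped with Wnt2 as well. Of the 1937 exon bases of Rhbg, 1190 are shared with another annotated gene, so its level and place may be understated. Wnt9b was lowest with 8.50 ± 3.40 per kilobase, under every control of Lgr5. The ligands thus lay below 5 of the 7 targets, while the means of Rhbg and Lgr5 lay below those of Rspo3 and Wnt2.

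For the members whose groups did not overlap, the DNA before the transcription start is shown where RefSeq's promoter table for GRCm38.p6, the assembly also called mm10, held an entry. This was the case for Wnt2, Axin2 and Slc13a3; Tbx3 is named only. Windows of 250 bases before the RefSeq start were searched on both strands for the TCF/LEF motif CTTTGAT, its shorter core CTTTG, which every longer match also contains, and the GATA spellings AGATAA and AGATAG, together with the forms TGATAA and, lastly, TGATAG. The stretch printed ends before the first base of the GENCODE gene, reads 5′ to 3′ on the gene's strand, and has matches in capitals.
Wnt2, chr6:18030586-18030695, minus strand: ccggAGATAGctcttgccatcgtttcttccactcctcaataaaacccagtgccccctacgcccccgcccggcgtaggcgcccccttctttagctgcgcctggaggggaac
Axin2, chr11:108920099-108920348, plus strand: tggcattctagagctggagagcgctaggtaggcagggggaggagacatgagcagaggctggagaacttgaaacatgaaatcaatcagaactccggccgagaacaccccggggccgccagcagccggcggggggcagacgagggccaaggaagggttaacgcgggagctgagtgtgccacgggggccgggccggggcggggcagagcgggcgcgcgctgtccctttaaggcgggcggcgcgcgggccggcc
Slc13a3, chr2:165473231-165473447, minus strand: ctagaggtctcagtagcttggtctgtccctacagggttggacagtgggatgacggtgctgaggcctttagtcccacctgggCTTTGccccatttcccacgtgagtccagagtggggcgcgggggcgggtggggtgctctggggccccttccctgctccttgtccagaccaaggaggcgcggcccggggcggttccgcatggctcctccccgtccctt
None of these windows held CTTTGAT, which occurs in 3.21% of 32851 promoter windows of the same length. Slc13a3 held the short core 169 bases before its start, as do 48.6% of all windows for any position. Wnt2 held GATA spellings 246 bases and 9 bases before its start, the nearer one outside the printed stretch, and 26.5% of all windows held at least 1. Motif matches were also found in members whose groups overlapped. Rnf43 held GATA spellings 140, 128 and 35 bases before 1 of its RefSeq starts. Wnt9b held the short core 203 bases before its start. These are matches of letters and say nothing of binding.

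Wnt2, a WNT ligand of liver endothelium, lies on chromosome 6 (17988940 to 18030585, minus strand, mm10). Its normalised read counts were 63.8, 59.2 and 75.7 in control livers against 76.7, 121 and 98.2 in Gata4LKO-labelled livers. The groups did not overlap, but Gata4LKO replicate 1 lay just above the highest control. The means of 66.2 ± 8.49 and 98.8 ± 22.4 (SD, n = 3) gave a 1.49-fold difference, with a log2 fold change of 0.55 (SE 0.22). Between controls the spread of 12.8% was close to the 12.2% that counting reads alone gives. In the libraries labelled Gata4LKO the spread was 22.6%, above the 10% of counting.

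Rspo3, the R-spondin of the central vein (chromosome 10, 29452416 to 29535867, minus strand), had 133, 180 and 114 normalised reads in the controls. The libraries labelled Gata4LKO had 168, 213 and 242. Control replicate 2 lay above Gata4LKO replicate 1, so the groups overlapped. The means differed 1.46-fold, from 142 ± 33.9 to 207 ± 37.3 (SD, n = 3), with a log2 fold change of 0.55 (SE 0.21).

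Wnt9b, the other WNT ligand of the central vein (chromosome 11, 103727364 to 103749821, minus strand), had normalised read counts of 55.6, 26.0 and 33.6 in control livers against 25.6, 68.3 and 41.6 in Gata4LKO-labelled livers. The groups overlapped almost entirely, and both held a library near 26. The log2 fold change of 0.19 (SE 0.42) was negative without Control replicate 2 or Gata4LKO replicate 2, at -0.05 and -0.16. The gene was read by only 25 to 68 reads per library, yet its spread of 40.0% between controls exceeded the 16.2% of counting error. Gata4LKO replicate 1 had the lowest value of its group for each of the 3 ligands.

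Tbx3 (chromosome 5, 119670669 to 119684724, plus strand) had normalised read counts of 1832, 1903 and 2076 in control livers against 2581, 3815 and 3264 in Gata4LKO-labelled livers. Every library labelled Gata4LKO lay above every control, while these libraries spread more, with 19.2% against 6.49% between controls. The means of 1937 ± 126 and 3220 ± 619 (SD, n = 3) differed 1.66-fold, with a log2 fold change of 0.72 (SE 0.14). Leaving out each library in turn kept it between 0.58 and 0.87.

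Slc13a3 encodes a sodium-coupled dicarboxylate transporter (chromosome 2, 165405028 to 165473230, minus strand). It had normalised read counts of 922, 1234 and 879 in control livers against 1951, 2031 and 1687 in Gata4LKO-labelled livers, again without overlap. The difference from 1012 ± 194 to 1889 ± 180 (SD, n = 3) was 1.87-fold, the largest of the 10 genes, with a log2 fold change of 0.91 (SE 0.14). The values of the group labelled Gata4LKO spread by 9.51%, against 19.2% for Tbx3. Between controls the order was reversed, with 19.2% for Slc13a3 and 6.49% for Tbx3.

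Axin2, a scaffold of the complex that destroys beta-catenin and a general feedback target of the pathway (chromosome 11, 108920349 to 108950783, plus strand), had 360, 406 and 404 normalised reads in the controls. In the libraries labelled Gata4LKO it had 597, 665 and 479, all above the controls. The means differed 1.49-fold, 390 ± 25.9 against 580 ± 94.0 (SD, n = 3), with a log2 fold change of 0.56 (SE 0.13).

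Rhbg, an ammonium transporter of the Rhesus family (chromosome 3, 88242874 to 88254709, minus strand), had normalised read counts of 30.9, 76.9 and 57.0 in control livers against 110, 93.4 and 48.2 in Gata4LKO-labelled livers. The groups overlapped, since Gata4LKO replicate 3 lay below Control replicates 2 and 3. The log2 fold change of 0.62 had a standard error of 0.41, and it was 0.26 without Control replicate 1 and 0.97 without Gata4LKO replicate 3. The annotated gene Gm38392 shares 1190 exon bases with Rhbg on the same strand, and reads there may have been divided or dropped.

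The receptor and the ubiquitin ligases had small differences. Lgr5, a receptor of R-spondins (chromosome 10, 115450311 to 115587780, minus strand), had normalised read counts of 312, 225 and 208 in control livers against 195, 257 and 204 in Gata4LKO-labelled livers. It was the only member with a negative log2 fold change, -0.17 (SE 0.19), which came to 0.0032 without Control replicate 1. Znrf3 (chromosome 11, 5276324 to 5444847, minus strand) had 634, 549 and 630 in control livers against 608, 608 and 700.0 in Gata4LKO-labelled livers. These groups overlapped, at a log2 fold change of 0.08 (SE 0.10), and Znrf3 had the smallest spread between libraries labelled Gata4LKO, 8.32%. Rnf43 (chromosome 11, 87662722 to 87735539, plus strand) had 1473, 1571 and 1337 in control livers against 1239, 1997 and 1844 in Gata4LKO-labelled livers. Gata4LKO replicate 1 was the lowest of all 6 libraries for Rnf43 while the others of its group were the highest, and the log2 fold change of 0.19 (SE 0.17) was 0.40 without it.

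**Figure D1:**
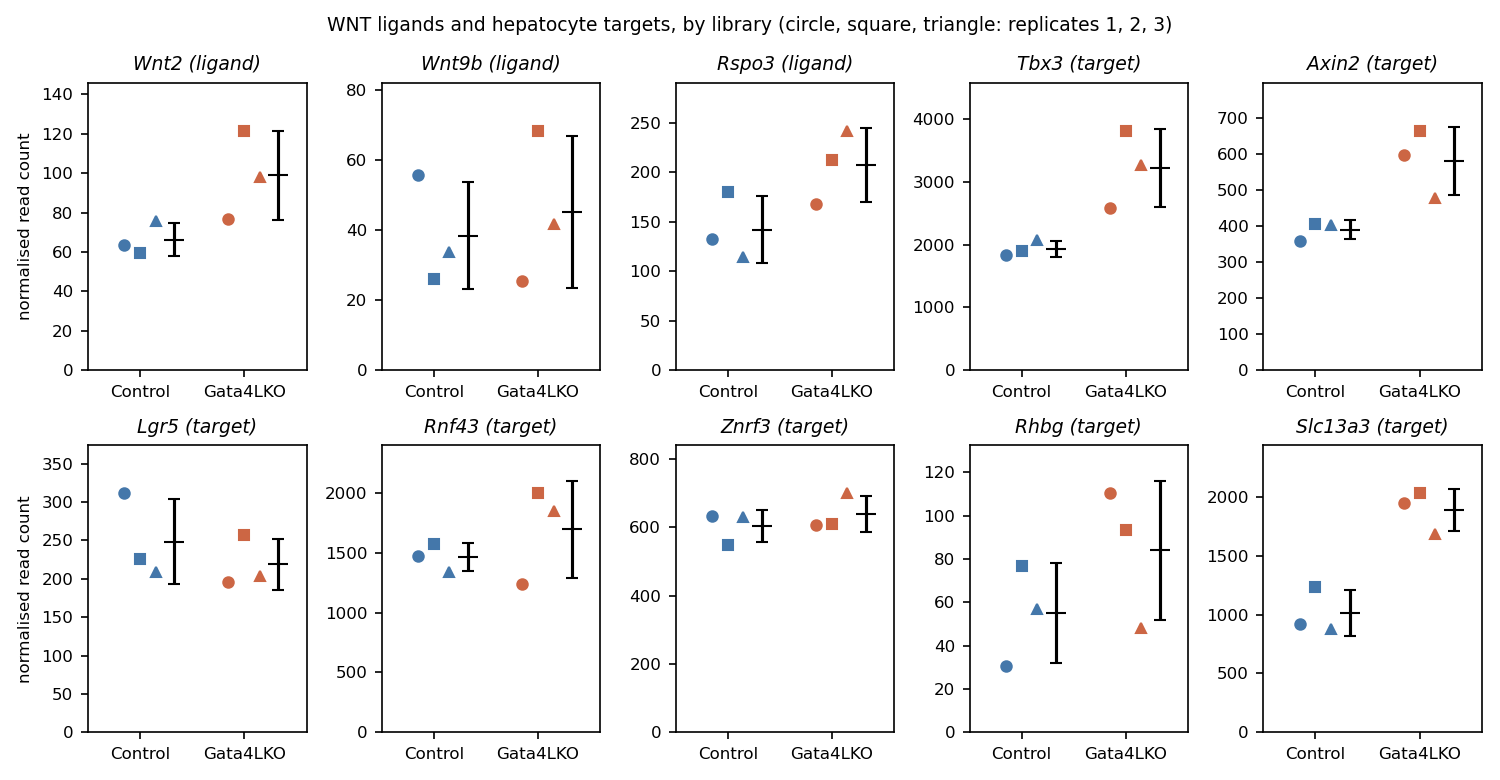
Normalised read counts (vertical axes, from 0) of the 10 genes in each of the 3 Control and 3 Gata4LKO libraries, with the mean and SD of each group as bars. Tbx3, Slc13a3, Axin2 and Wnt2 do not overlap between the groups, and the other 6 genes do.

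9 of the 10 log2 fold changes were positive, against 48.5% of all genes tested. Among the members limma called Tbx3 and Slc13a3, both higher, where 2.06% of all genes were called and 1.13% were called higher. EdgeR on the recovered reads called the same 2 members, where it called 1.97% of genes (1.13% higher, 0.848% lower). DESeq2 called Axin2 as well, where it called 9.48% (5.97% higher, 3.51% lower). In the authors' deposited table these 3 genes are past an adjusted p of 0.05, as are 9.41% of genes with a value there, 5.98% in the higher direction. The log2 fold changes of Tbx3, Slc13a3 and Axin2 in the authors' deposited table are 0.73, 0.90 and 0.57. The groups did not overlap for 4 of the 10 members, all higher, where 15.0% of all genes tested were higher without overlap, 13.4% lower, and 28.3% either. Because the members were chosen on this contrast, nothing is read from these counts. The call of Tbx3 was made under 9 and that of Slc13a3 under 11 of 18 alternative settings. With a library left out, Tbx3 was called only without Gata4LKO replicate 1 and Slc13a3 only without Control replicate 2.

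**Figure D2:**
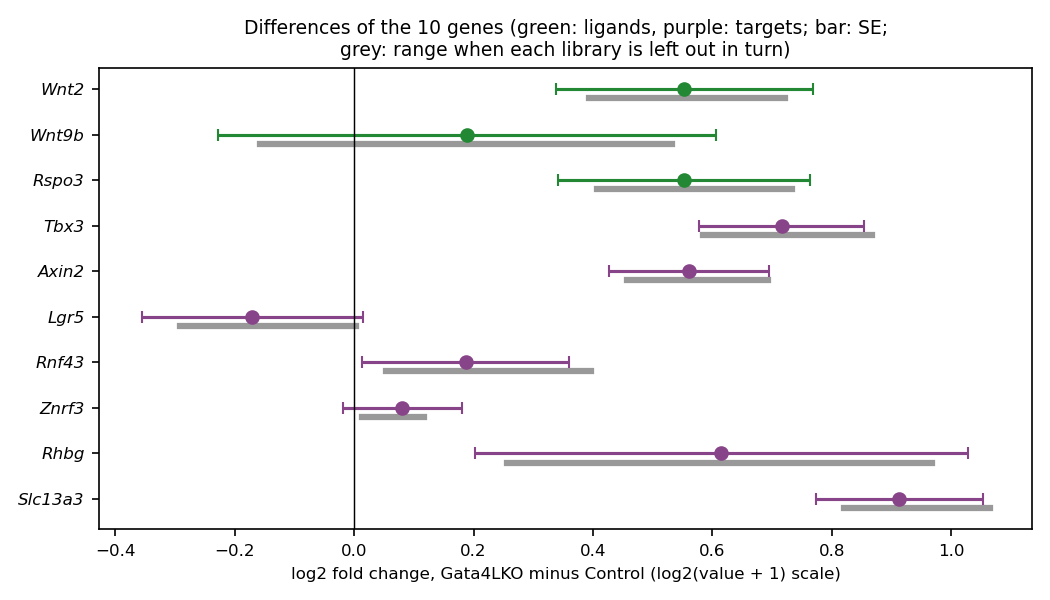
Log2 fold change of Gata4LKO against Control for each of the 10 genes (horizontal axis), with its standard error as a bar and, in grey, the range when each library is left out in turn. Slc13a3 (0.91) and Tbx3 (0.72) lie farthest from 0, and the grey ranges of Wnt9b and Lgr5 reach across 0.

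Set side by side, the endothelial ligands and the hepatocyte targets differed by similar amounts. The mean log2 difference was 0.43 over the 3 ligands and 0.41 over the 7 targets, and the ligand mean minus the target mean was 0.02. Library by library this ligand-minus-target value was 0.24, -0.20 and -0.04 in control livers, against -0.37, 0.19 and 0.23 in Gata4LKO-labelled livers. The groups overlapped, and within each group the value spread by far more than it differed between them. In Gata4LKO replicate 1 the ligands stood at -0.0058 and the targets at 0.36 relative to the control mean, whereas in Gata4LKO replicate 2 the ligands stood at 0.79 and the targets at 0.59. The order of ligands and targets in the group labelled Gata4LKO therefore turned on the library.

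Endothelial marker genes stood higher in the libraries labelled Gata4LKO. Their list was chosen with earlier results of these data known, so its counts and calls are a description. Of 20 endothelial markers, sinusoidal and general ones together, all 20 had positive log2 fold changes, 8 rose and 0 fell (limma, adjusted p under 0.05; 1.13% of all genes tested rose), with a median of 0.65 against -0.0083 over all genes tested. For Eng, a TGF-beta co-receptor, the rise was 0.72 (SE 0.07) on the log2 scale, with a limma adjusted p of 0.0101. The adhesion molecule Pecam1 and the cadherin Cdh5 rose by 0.68 and 0.96 (limma adjusted p = 0.0174 and 0.0216). The nuclease Dnase1l3, the lectin Clec4g and the Fc receptor Fcgr2b rose by 0.69, 0.76 and 0.52 (limma adjusted p = 0.0160, 0.0285 and 0.0376). The summed level of these markers ran from 11442 to 13261 normalised reads in the controls and from 17610 to 21110 in the libraries labelled Gata4LKO. Counted together with 5 vein markers, 8 of 25 were called, and this number rested on single livers. Leaving out Control 1, 2 or 3 gave 3, 11 and 1. Leaving out Gata4LKO 1, 2 or 3 gave 2, 6 and 0. By DESeq2 on the reads recovered from the table, 14 of the 20 were higher, where 5.97% of all genes were.

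A further list held genes picked as vein endothelial markers, and whether they mark veins alone was not tested. Of its 6 genes 5 were tested, 4 of them positive with a median log2 fold change of 0.44, and 0 passed by limma, with 1 under an unadjusted p of 0.05 and 1 called by DESeq2. The receptor tyrosine kinase gene Kit had a log2 fold change of 0.61 and the thrombomodulin gene Thbd 0.54, while Vwf, von Willebrand factor, had -0.07. Selp, P-selectin, had 0.44 and the cadherin gene Cdh13 had 0.28. The list's mean in Gata4LKO replicate 1 was 0.14, below the 0.55 and 0.39 of the other libraries of that group, and the 3 ligands also stood lowest there.

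The members were also set against the mean of the 20 endothelial markers in the same library. That mean was 0.64 higher in the libraries labelled Gata4LKO, so a gene that did not differ would stand at -0.64 on this scale, and the median of all genes tested was -0.65. On it the log2 difference was -0.09 for Wnt2, -0.09 for Rspo3 and -0.45 for Wnt9b, and the groups overlapped for each. Tbx3 and Axin2 had 0.08 and -0.08, and Slc13a3 had 0.27, also with overlap. Lgr5 and Znrf3 had -0.81 and -0.56 without overlap, as did 70.6% of all genes on the lower side and 1.15% on the higher side.

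Against the mean of 7 hepatocyte markers, which was lower by -0.30, a gene that did not differ would stand at 0.30, and the median of all genes was 0.29. Tbx3 stood at 1.02, Slc13a3 at 1.21 and Axin2 at 0.86 on this scale. Rnf43 stood at 0.49 and Znrf3 at 0.38, close to the median of all genes. These 5 targets did not overlap between the groups, but neither did 43.8% of all genes on the higher side and 1.73% on the lower side. Lgr5 with 0.13 and Rhbg with 0.92 overlapped.

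Stellate, Kupffer and lymphocyte markers had positive values too. All 11 stellate cell markers had positive log2 fold changes with a median of 1.13, and their summed level was 5003 to 12361 normalised reads in the controls against 13873 to 16832 in the libraries labelled Gata4LKO. All 10 Kupffer cell markers were positive with a median of 1.27, their sums running from 3663 to 8487 and from 10038 to 20824. No stellate or Kupffer marker passed limma, although 10 and 10 had an unadjusted p under 0.05 and DESeq2 called 4 and 8, all higher. Over all genes tested, 13.1% were higher at an unadjusted p under 0.05 and 5.97% were called higher by DESeq2. All 5 lymphocyte markers were positive, with a median of 1.02. Of 6 bile duct markers tested 5 were negative (median -0.30), of 4 mesothelial markers 3 (median -0.80) and of 3 smooth muscle markers 2 (median -0.26). Of the lymphocyte, bile duct, mesothelial and muscle markers 0 passed limma, with 2, 2, 0 and 0 genes at an unadjusted p under 0.05 and 1, 1, 0 and 0 called by DESeq2, both calls in the higher direction. Of the hepatocyte markers 1 of 7 was positive and 0 passed limma, with 2 at an unadjusted p under 0.05 and 3 called lower by DESeq2. No marker of these lists was at 0 in every library. The part of these shifts in the values of the 10 genes was not tested.

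**Figure D3:**
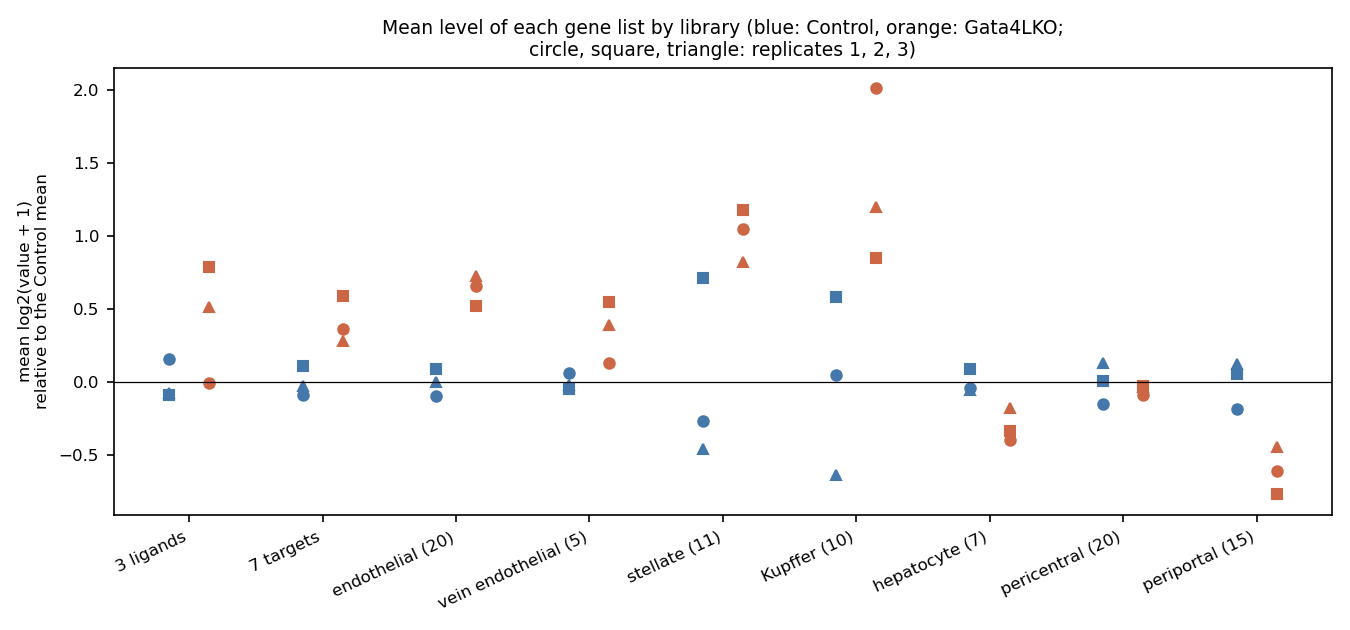
Mean log2(value + 1) of each gene list in every library relative to the Control mean (vertical axis), for the ligands, the targets and marker lists, with the number of genes tested in brackets. The endothelial markers stand between 0.52 and 0.73 in the 3 Gata4LKO libraries, and the ligands spread from -0.0058 to 0.79.

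The genes whose profile over the 6 libraries lay nearest to that of Tbx3, among 11495 genes with a mean of at least 50, were Ncald, Zfp932, D630045J12Rik, Cplane1 and Rhoj. Their root mean square distances from Tbx3 were 0.06, 0.09, 0.09, 0.09 and 0.09 on the centred log2 scale. Wnt2 ranked as number 7 of the 11495, at a distance of 0.11. Counting reads alone gave Wnt2 an error of 12.2% in control and 10% in Gata4LKO-labelled livers, so its rank is imprecise. Axin2 and Slc13a3 ranked 110 and 438, and Lgr5 and Rhbg 8651 and 9919. Such nearness is a description over 6 libraries in 2 groups.

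Tbx3os1, a noncoding gene antisense to Tbx3 (chromosome 5, 119570130 to 119671365, minus strand), had a larger log2 fold change than Tbx3 itself, a difference that was not tested. It was looked up as the gene overlapping Tbx3 and named after its values were seen. Its normalised read counts were 423, 369 and 321 in control livers against 1198, 996 and 997 in Gata4LKO-labelled livers, well apart. The difference from 371 ± 50.8 to 1063 ± 116 (SD, n = 3) was 2.87-fold, a log2 fold change of 1.52 (SE 0.13) at a limma adjusted p of 0.00426. The call held whichever library was left out, with adjusted p-values from 1.2e-20 to 0.847 over all 18 alternatives and a miss only with the endothelial marker mean as a covariate. Its count was 15.5% to 23.1% of the Tbx3 count in the controls and 26.1% to 46.4% in the libraries labelled Gata4LKO. The genes share 115 exon bases, and the strand setting of the counting is not given in the sources used here, so reads on these bases cannot be told apart. Of the other members, Rspo3 overlaps the antisense gene Gm48159, which had at most 2.06 normalised reads. Axin2 shares 209 exon bases with the antisense gene Gm11670, which was not analysed here, and the antisense Gm14437 overlaps Slc13a3 without shared exon bases.

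**Figure D4:**
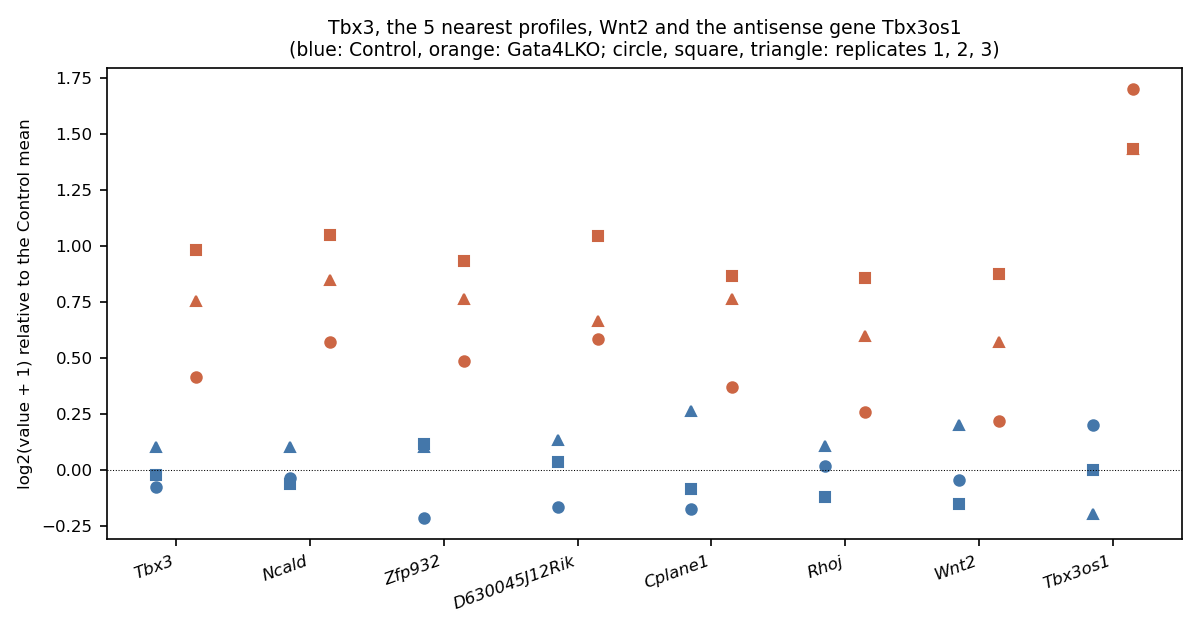
Log2(value + 1) relative to the Control mean (vertical axis) in each library for Tbx3, its 5 nearest genes, Wnt2 and Tbx3os1. In the Gata4LKO libraries Tbx3 and Wnt2 are lowest in replicate 1, where Tbx3os1 is highest, and the points of Tbx3os1 in replicates 2 and 3 coincide.

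Beyond the 10 members, no gene of the wider pathway passed by limma. Of 96 listed genes for ligands, secretion, receptors, inhibitors, signal transduction and further targets, 84 were in the table and 60 had enough reads to be tested. Of the 60, 0 passed (limma), 19 had an unadjusted p under 0.05, where 22.4% of all genes tested had one, edgeR called 0 and DESeq2 called 4 higher and 1 lower, where DESeq2 called 9.48% of all genes. The median log2 fold change was -0.05, close to the -0.0083 of all genes tested. Without Control replicate 2 limma called 4 of them higher, Ccnd1, Frzb, Fzd1 and Wls.

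Among the other ligands 4 of 21 were tested. Wnt5a, a ligand of the beta-catenin-independent branch, had normalised read counts of 156, 117 and 149 in control livers against 198, 270 and 313 in Gata4LKO-labelled livers, without overlap. Its log2 fold change was 0.87 (SE 0.20, limma adjusted p = 0.0694), and DESeq2 called it (adjusted p = 0.00299). Wnt5b was the most abundant of these per kilobase, 103 in the controls, with a log2 fold change of -0.20, and Wnt9a had -0.44. Wnt4 had 0.79 (SE 0.31, limma adjusted p = 0.189) with overlap. Wls, which carries WNT proteins to the cell surface, had 90.5, 146 and 59.8 in control livers against 162, 155 and 153 in Gata4LKO-labelled livers, a log2 fold change of 0.75 (SE 0.30, limma adjusted p = 0.193).

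Among 11 receptors and 28 transduction genes tested, 0 passed limma, with 3 and 5 at an unadjusted p under 0.05, and edgeR and DESeq2 called 0. The groups did not overlap for 4 receptors (3 higher, 1 lower) and 7 transduction genes (3 higher, 4 lower), against 28.3% of all genes tested. Lgr4, the R-spondin receptor with the higher level in this tissue (534 normalised reads per kilobase in the controls, against 24.2 for Lgr5), had a log2 fold change of -0.12 (SE 0.07). Fzd4 and the WNT-binding kinase-like receptor Ryk, next in level with 511 and 373 per kilobase, had -0.14 and 0.11. The co-receptor Lrp6 had 0.09 (SE 0.12). The receptors without overlap were Ryk, the co-receptor Lrp5 with 0.28 (SE 0.08), Fzd1 with 0.41 (SE 0.14) and Fzd7 with -0.37 (SE 0.13), the last 3 named after their values were seen. Of 28 transduction genes 19 were negative, with a median of -0.07. Ctnnb1, which encodes beta-catenin, had normalised read counts of 6986, 6797 and 7416 in control livers against 6695, 7291 and 7206 in Gata4LKO-labelled livers, a log2 fold change of -0.00052 (SE 0.07). Tcf7l2, the main TCF factor of liver, had -0.13 (SE 0.15), and the kinase genes Gsk3a and Csnk1d had -0.06 and -0.08. The 7 transduction genes without overlap, also named after their values were seen, were Gsk3b with 0.24, Apc2 with 0.46 and Csnk1e with 0.13 on the higher side. On the lower side they were Dvl1 with -0.19, Dvl2 with -0.47, Axin1 with -0.29 and Ctnnbip1 with -0.32.

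Inhibitors and further targets had values of both signs. Of 6 inhibitors tested 5 were positive and 1 negative, with a median log2 fold change of 0.28. Of 9 further targets tested 5 were positive and 4 negative, with a median of 0.38. The groups did not overlap for 2 inhibitors, all higher, nor for 4 higher and 1 lower of the further targets. Over all genes tested, 15.0% were higher and 13.4% lower without overlap. By limma 2 inhibitors and 6 further targets had an unadjusted p under 0.05, against 22.4% of all genes tested. Notum, a secreted enzyme that inactivates WNT proteins and the most abundant inhibitor (662 per kilobase in the controls), had a log2 fold change of 0.24. Kremen1 had 0.07 and Dkk3 0.69. Frzb, a secreted WNT-binding protein, had normalised read counts of 24.7, 39.5 and 27.1 in control livers against 80.8, 68.3 and 52.9 in Gata4LKO-labelled livers, a log2 fold change of 1.13 (SE 0.27, limma adjusted p = 0.0721). Ccnd1, a cyclin, had 0.78 (SE 0.17, limma adjusted p = 0.0654), while Myc had 686, 1055 and 448 in control livers against 362, 250 and 200 in Gata4LKO-labelled livers. For Myc this is a log2 fold change of -1.38 (SE 0.33, limma adjusted p = 0.0719) without overlap of the groups, opposite in sign to Axin2 and Ccnd1. DESeq2 called Ccnd1, Cd44 and Frzb higher and Myc lower. Tcf7 had -0.15.

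Pericentral hepatocyte genes, many of which depend on WNT signals, had values of both signs. This list too was chosen with earlier results of these data known. Of 20 such genes outside the members, 10 were positive and 10 negative, with a median log2 fold change of -0.0038. Cyp2c29, a cytochrome P450, fell (log2 fold change -1.30, SE 0.21, limma adjusted p = 0.0312), and no other passed, where 0.932% of all genes tested fell. This call was lost without Control replicate 1 or Gata4LKO replicate 2 or 3, and Cyp2c genes are closely related copies between which reads can be split. Glul, glutamine synthetase of the innermost pericentral cells, had normalised read counts of 32286, 32827 and 33137 in control livers against 39872, 38815 and 33910 in Gata4LKO-labelled livers, a log2 fold change of 0.19 (SE 0.095). Cyp2e1 had 0.16 (SE 0.18) and Rgn -0.12. Of the 20 genes, 4 were higher and 3 lower without overlap of the groups, against 15.0% and 13.4% of all genes tested. Glul and Cyp2e1 were among the higher ones and Rgn among the lower ones. Cyp1a2 had 26785, 26978 and 26935 in control livers against 11196, 20018 and 16298 in Gata4LKO-labelled livers, without overlap, at -0.80 (SE 0.19, limma adjusted p = 0.0721). Oat, an aminotransferase gene, had -0.55 (SE 0.32), and without Control replicate 1, which was far below the other controls, it was called at -0.96 (limma adjusted p = 0.0282).

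Periportal genes, which WNT signals are known to hold down, had mostly negative values. Their list was likewise chosen with earlier results of these data known, so its counts and calls are a description. Of 15 genes 14 were negative, with a median of -0.37, where 48.5% of all genes tested were positive and their median was -0.0083. By limma 3 fell, where 0.932% of all genes tested did. They were the urea cycle gene Otc by 0.87, the glutaminase gene Gls2 by 0.80 and the aldehyde dehydrogenase gene Aldh1b1 by 2.24 on the log2 scale (limma adjusted p = 0.0101, 0.0483 and 0.0162). Without Gata4LKO replicate 3 none of the 3 passed. Without Control replicate 3 only Otc did. The calls of Otc, Aldh1b1 and Gls2 were made under 15, 14 and 9 of 18 alternative settings. Gls2 was missed, among others, by edgeR and without Gata4LKO replicate 1 or 2. Cyp2f2 had a log2 fold change of -0.31 (SE 0.14), Arg1 -0.32, and Cps1 and Pck1, the most abundant per kilobase, had -0.15 and -0.25. The list stood at -0.18, 0.06 and 0.12 in control livers, against -0.61, -0.77 and -0.44 in Gata4LKO-labelled livers. The hepatocyte marker list stood lower in the same libraries, at -0.39, -0.33 and -0.17, and its part in the periportal values was not tested.

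**Figure D5:**
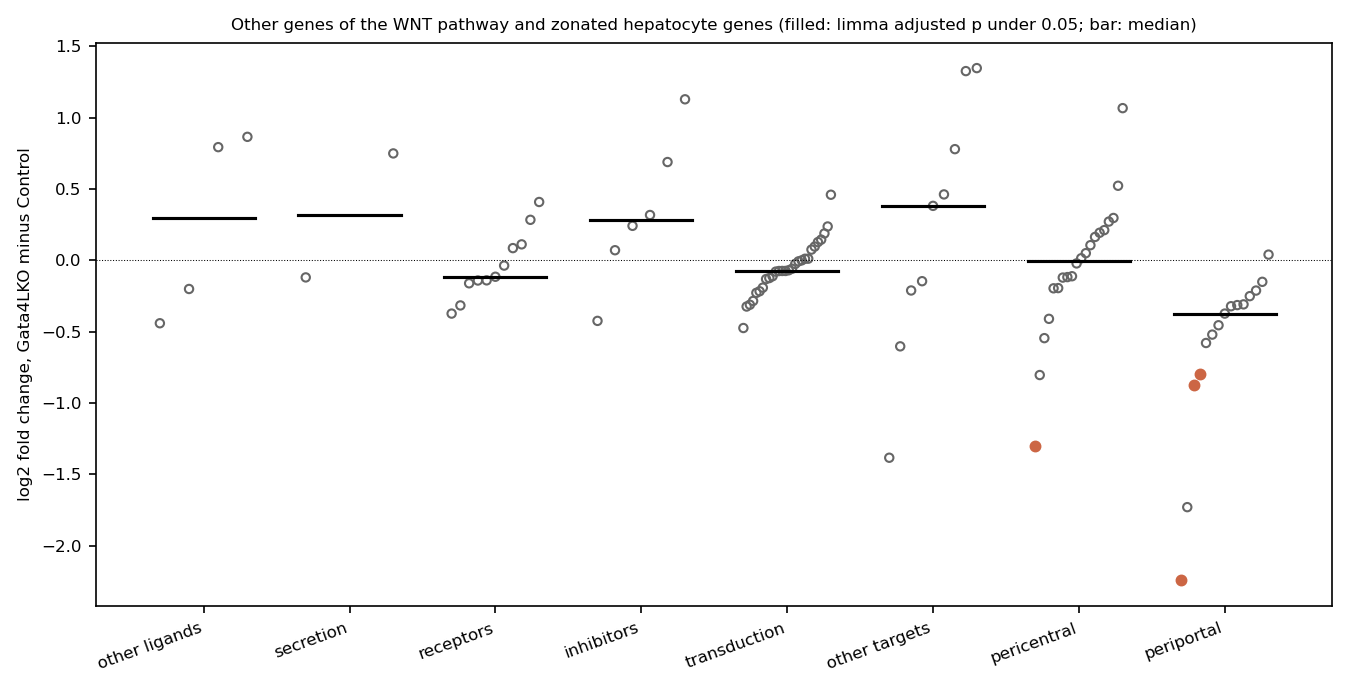
Log2 fold change of Gata4LKO against Control (vertical axis) for every tested gene of the wider WNT lists and the pericentral and periportal lists, with the median of each list as a bar and genes past limma's adjusted p of 0.05 filled. The 4 filled genes are Cyp2c29 among the pericentral genes and Otc, Gls2 and Aldh1b1 among the periportal genes.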

How the data were processed

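Stranded libraries were made from captured liver mRNA, per the labels' protocols. STAR 2.6.0c, FastQC, DESeq2 and the build mm10 appear in the submitters' processing notes. Which program counted reads, and over which annotation, is not given in the sources used here. The authors deposited a normalised signal per gene: each value is a gene count divided by 1 factor per library. All values lay within 0.1 of a whole multiple of their library's step, which gave back the whole reads. A second table holds the authors' log2 fold changes and adjusted p-values, under DESeq2's column names. The 15 pairs of libraries all differed beyond counting noise (chi-square per degree of freedom of at least 28.2). The lowest value was that of Gata4LKO replicates 2 and 3. Gata4LKO replicate 1 stood at 81.4 and 72.1 from these, and at 71.0, 101 and 85.5 from Control replicates 1, 2 and 3. Replicate numbers follow accession order and pair no mice. Nothing in the labels gives a preparation batch.

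The test was limma 3.58.1 (R 4.3.3) on log2(value + 1) with an intensity trend and no covariate, for 14385 genes with a mean of at least 10, two-sided, Benjamini-Hochberg adjusted over all of them. Fold changes on this scale understate changes of low genes. EdgeR 4.0.16 and DESeq2 1.42.0 on the whole reads were alternatives. The fits were tested on simulated data. The 10 members and all lists were chosen with earlier results of these data known. Named were the members, Gata4, a few core genes fixed by name, up to 6 called genes and the 3 of highest level per kilobase in each list, and the 5 genes nearest to Tbx3; marker lists beyond the endothelial ones are given by counts. Others, named by their calls or overlap, were chosen after their values were seen. Gene positions and exon lengths are from GENCODE M21 on the same assembly.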

Additional observations from a re-analysis of the deposited data

How the results depend on the processing

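No paired analysis was possible because the replicate numbers were given in accession order and pair no mice. Of 179 fold changes of the 10 members under alternative settings, 172 moved by less than the spread between replicates, and the 7 that moved more all came from adding the endothelial marker mean as a covariate. That mean did not overlap between the groups, so it and the group cannot be told apart. Under it all called counts were 0, Rspo3 had a log2 fold change of -0.22 and the ligand-minus-target value was 0.83, against 0.02. Over all genes the count of 296 was 458 with equal library sums, 25 without the variance trend, 1364 with DESeq2 and 27 to 794 with a library left out. The wider WNT count of 0 was 1 with equal sums (Ccnd1), 5 with DESeq2 and 0 to 4 with a library left out. The pericentral count of 1 was 0 without the trend, 3 with DESeq2 and 0 to 1 with a library left out. The periportal count of 3 was 0 without the trend, 6 with DESeq2 and 0 to 3 with a library left out. The endothelial count of 8 of 25 was 0 without the trend, 15 with DESeq2 and 0 to 11 with a library left out. With a library left out the ligand-minus-target value ran from -0.09 to 0.21. With a mean of at least 50 it could not be had, since Wnt9b was then left out. Counting error was largest for Wnt9b and Rhbg, with 25 to 108 reads per library. Their spreads between controls, 40.0% and 42.0%, still exceeded the 16.2% and 13.5% of counting error. The causes of these shifts were not tested.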
